A study of Homo sapiens with 6 samples.

Results

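Forced expression of the transcription factor MIST1 was compared with a transfection control in 2 human gastric cancer cell lines. The 4 arrays taken, of 6 in the series, are those titled MIST1 and those titled GFP control in AGS and HGC-27. AGS is a gastric adenocarcinoma line and HGC-27 a line from an undifferentiated gastric carcinoma. Control cells were nucleofected with 3 µg of empty vector and 1.5 µg of a GFP plasmid, and MIST1 cells with 3 µg of MIST1 plasmid and the same amount of the GFP plasmid. Both groups were sorted for GFP 24 h after transfection and grown for 24 h more before total RNA was taken. All 4 arrays therefore share the electroporation, the GFP plasmid and the sort, and the expression of MIST1 is transient. No source used here states the promoter of the construct or the species of its MIST1. The other 2 arrays, of untransfected parental cells, entered no test here and are given as levels. The array reads transcripts through probe sets, groups of short probes with a summed intensity. Of its 54675 probe sets, 41097 name 1 gene (19775 genes), and 23674 of these, from 12840 genes, were bright enough to test.

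MIST1, the product of BHLHA15, is a basic helix-loop-helix protein that binds E-boxes, short DNA elements of the form CANNTG. It is found in cells that make and store large amounts of secreted protein, such as the zymogenic cells of the stomach and the acinar cells of the pancreas. It is known for turning on genes of secretory vesicle maturation and of the enlarged secretory apparatus, among them those of the vesicle GTPases RAB3D and RAB26.

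There was 1 array per condition and line, so the replicates of the comparison are the 2 lines and no culture was repeated. The 6 arrays had median intensities of 49.12 to 51.96. Over the probe sets tested, the median log2 value was 8.13 in both AGS arrays and went from 8.11 in the HGC-27 control to 8.04 in the HGC-27 MIST1 array. Pearson r over these probe sets was 0.996 between the 2 AGS arrays, 0.994 between the 2 HGC-27 arrays and at most 0.695 across lines. The epithelial gene EPCAM read 6100 and 5681 in AGS (control, then MIST1) and 26.6 and 23.0 in HGC-27, and the mesenchymal gene VIM read 271 and 250 (AGS) and 13730 and 13500 (HGC-27). KRT18, KRT19 and CDH1 were also higher in AGS, and ZEB1 and FN1 in HGC-27. Other markers split the lines less. The epithelial gene KRT8 read 11530 and 11900 (AGS) and still 1518 and 1562 (HGC-27). The mesenchymal gene CDH2 read 57.45 and 47 (AGS) and 57.42 and 44.36 (HGC-27). The gastric transcription factor GATA6 read 2732 and 2372 (AGS) and 281 and 274 (HGC-27), and GATA4 and TFF1 were also higher in AGS. The gastric mucin genes were alike in the lines. MUC5AC read 107 and 127 (AGS) and 95.3 and 116 (HGC-27), and MUC6 86.8 and 82.2 (AGS) and 99.2 and 94.4 (HGC-27). The zymogenic gene PGC read 96.0 and 114 (AGS) and 75.7 and 94.7 (HGC-27), and CBLIF and LIPF, genes of mature gastric glands, were too dim to test. Of the leukocyte genes, PTPRC and CD14 were too dim to test. CD3E was tested and read 58.2 and 66.7 (AGS) and 57.9 and 62.8 (HGC-27). LYZ, in the list of leukocyte and endothelial genes given further on, read 2167 and 1951 (AGS) and 18.3 and 21.9 (HGC-27).

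The probe set of BHLHA15 read 75.8 in the AGS control and 72.5 with MIST1, and 61.9 and 58.7 in HGC-27. Its log2 change was -0.07 (limma adjusted p = 0.889, SE 0.15, n = 2 lines), so it does not separate the arrays labelled MIST1. No source used here states whether it can read the transcript of the construct, so no check of the labels or of the MIST1 dose comes from it. The marker genes RAB3D, RAB26 and SERPINI1 rose, as given next, while the other 5 tested genes of a list linked to MIST1, BIK, XBP1, COPZ2, DDIT4 and CDKN1A, were not called and changed by -0.11 to 0.11.

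The response was short and almost wholly upward. With MIST1, 44 probe sets of 37 genes rose and 1 probe set, of TNNC1, fell. Among the genes that rose were the vesicle GTPases RAB3D and RAB26, the secreted inhibitor SERPINI1, the lysosomal enzymes ACP2 and CTSC, the autophagy receptor CCPG1, the sugar nucleotide enzyme UAP1, the pyruvate carrier subunit MPC1 and the signalling adaptor TIFA. These are single genes, and most members of the lists they belong to, given further on, were not called. The calls come from limma with cell line as a block, at a Benjamini-Hochberg adjusted p below 0.05 over the 23674 probe sets. The called share was 0.186% of the probe sets tested for higher and 0.00422% for lower, and 2864 probe sets had an unadjusted p under 0.05. The fit has 1 residual degree of freedom and takes 8.11 from the spread of all probe sets, so its p-values measure how well single arrays of 2 lines repeat each other. The count depends on that spread and on scaling, with 0 calls when the parental arrays share the fit, when the cell line block is left out, without the filter on dim probe sets or without the variance trend. It was 136 higher and 11 lower after quantile normalization, and 453 higher and 74 lower with each array centred on its median, and all 45 calls were among these in both cases.

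**Figure D1:**
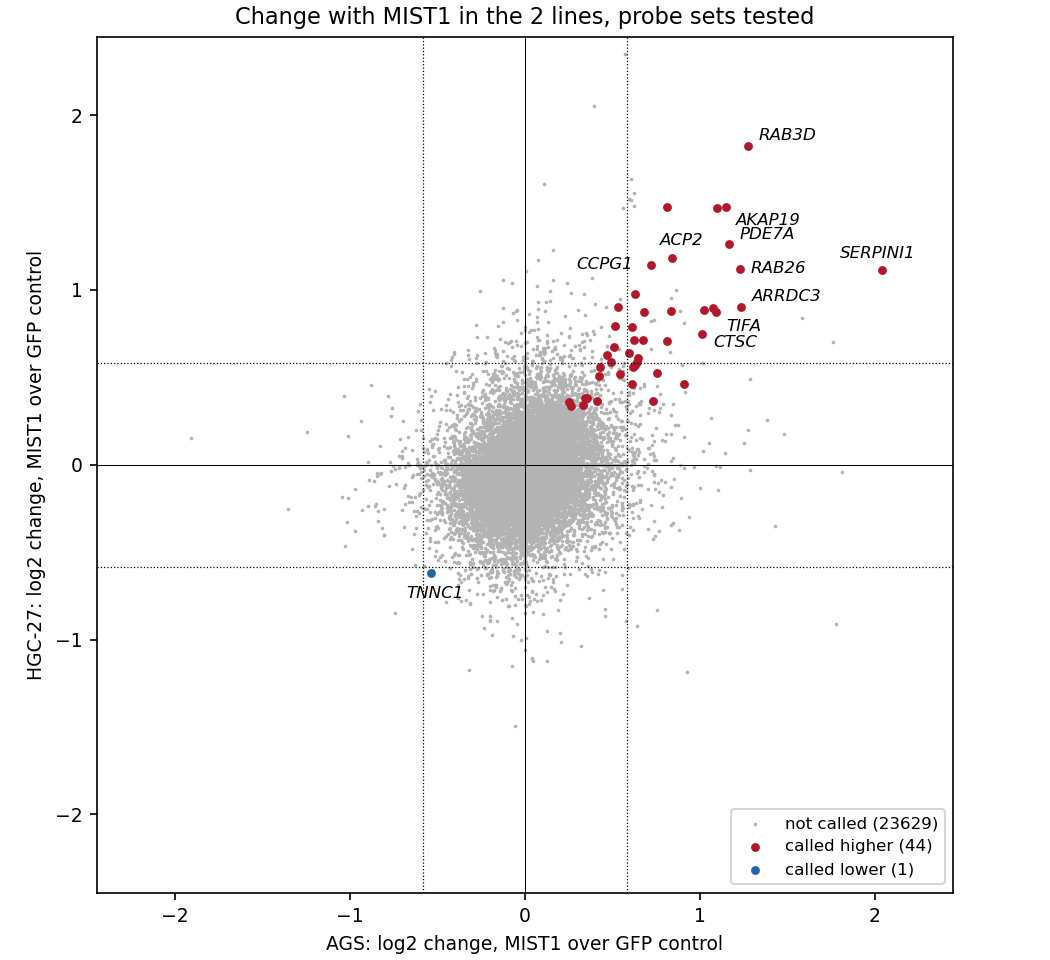
Log2 change of MIST1 over GFP control in AGS (horizontal) and HGC-27 (vertical), 1 point for each of the 23674 probe sets tested. Red points are the 44 called higher and the blue point is TNNC1, the 1 called lower, and dotted lines mark 1.5-fold. Red points all lie at the upper right, since the fit favours changes that repeat in both lines, while grey points spread to all sides.

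RAB3D, a small GTPase on the membrane of large secretory granules, rose in both lines and by both of its probe sets. Its brighter probe set read 539.5 in the AGS control and 1308 with MIST1, and 504 in the HGC-27 control and 1783 with MIST1. Parental cells read 603 and 414, so both MIST1 arrays lay above all 4 arrays without MIST1. The log2 change was 1.55 (limma adjusted p = 0.00206, SE 0.11, n = 2 lines), 2.42-fold in AGS and 3.53-fold in HGC-27. The dimmer probe set went in AGS from 127 to 271 and in HGC-27 from 131 to 363, a change of 1.28 (adjusted p = 0.00375). RAB26, another vesicle GTPase, linked to the maturation of zymogen granules, also rose by both probe sets. Its dimmer probe set went in AGS from 65.2 to 153 and in HGC-27 from 87.9 to 191 (log2 change 1.18, SE 0.12, limma adjusted p = 0.00773). Its brighter probe set went from 70.9 to 149.5 and from 122 to 227 (log2 change 0.99, SE 0.11, adjusted p = 0.0141). Parental levels of RAB26 lay between 56.7 and 124, below the MIST1 array of the same line in every case.

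SERPINI1 encodes neuroserpin, a secreted inhibitor of serine proteases, and had the largest called change. It read 57.9 in the AGS control and 238 with MIST1, and 230 in the HGC-27 control and 498 with MIST1, a log2 change of 1.58 (SE 0.18, n = 2 lines, limma adjusted p = 0.0141). The change was 4.11-fold in AGS and 2.16-fold in HGC-27. The parental arrays read 80.4 and 72.8, so in HGC-27 the transfected control already stood well above parental cells. The groups did not overlap, but the AGS MIST1 value of 238 stood only just above the HGC-27 control. The array has no other probe set that names SERPINI1 alone.

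**Figure D2:**
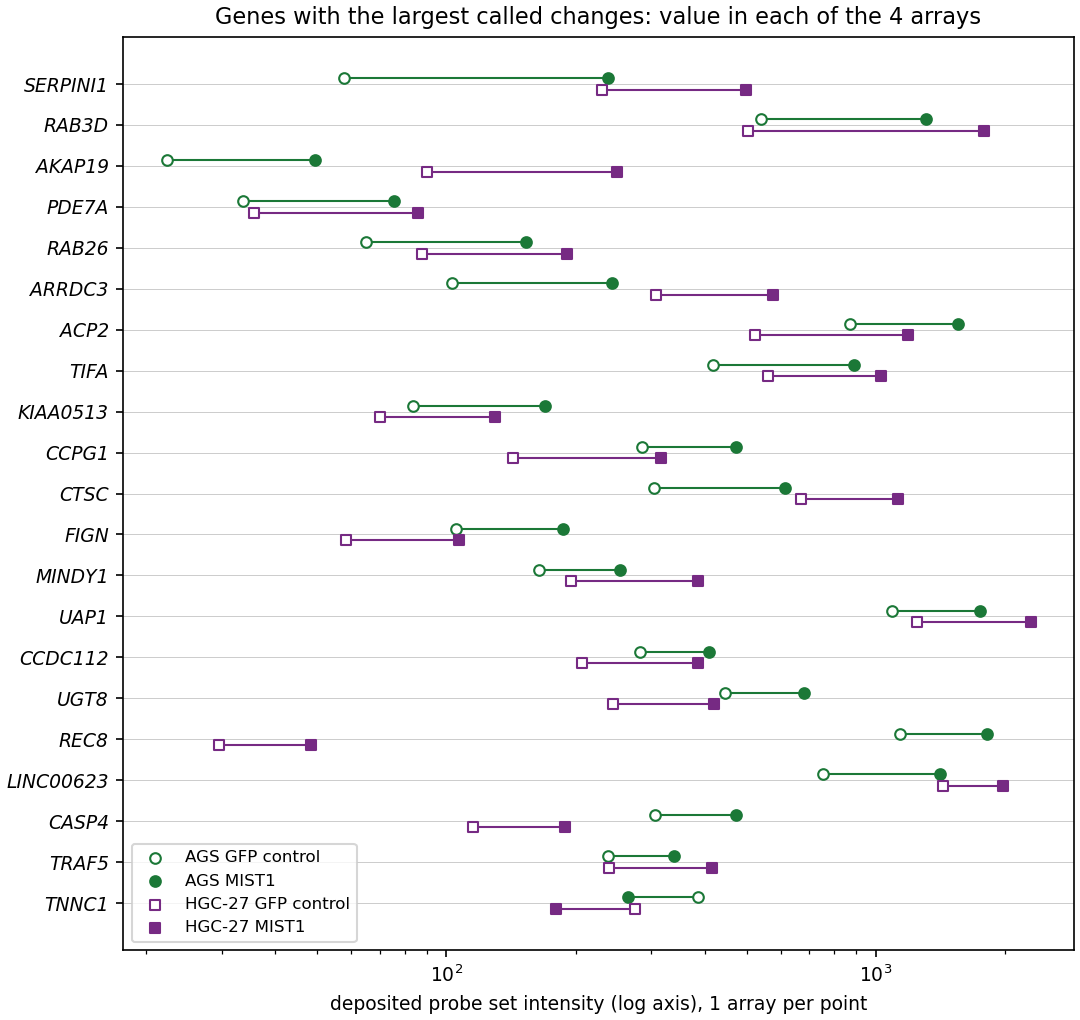
Deposited intensity (log axis) of the called probe set with the largest change of each of 20 genes that rose and of TNNC1, 1 array per point; open symbols are GFP controls, filled symbols MIST1, circles AGS and squares HGC-27, and lines join the arrays of a line. Every filled symbol lies to the right of its open partner except those of TNNC1, and the starting level of REC8 or SERPINI1 differs widely between the lines.

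The promoters of the genes that rose were read for E-boxes, since the data bear on a factor that binds them. RefSeq promoters (GRCh38.p14) were matched for 33 of the 37 genes, and the window is the 250 bases before the annotated start of transcription. RAB26, PDE7A, GGH and NDRG1 had no matched promoter and were not read. CANNTG, which reads the same class of site on both strands, occurred in 18 of the 33 (54.5%), against 54.0% of the matched promoters of all genes tested. CAGCTG, 1 of the forms that CANNTG takes, occurred in 5 (15.2%), against 12.8% of all genes tested and 13.8% of all promoters in the table. CATATG, another form, occurred in 0 of 33 and in 1.01% of the promoters of all genes tested. These shares are near the background. Among the 26 matched of the 32 genes at least 1.5-fold higher in both lines, 7 windows held CAGCTG (26.9%), a share given as a count of letters and no more. The windows of UAP1, MPC1 and ARRDC3, which also rose, hold no CANNTG in these letters.

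The 5 windows with CAGCTG are printed because they belong to genes that rose, and SERPINI1, RAB3D and AKAP19 had the 3 largest changes among these. Each reads 5′ to 3′ on the strand of its gene, ends at the base before the start, and has every CANNTG in capitals. SERPINI1 lies on the plus strand (chr3:167735471-167735720), RAB3D on the minus strand (chr19:11339658-11339907), AKAP19 on the plus strand (chr2:190137527-190137776), TIFA on the minus strand (chr4:112285905-112286154) and TMEM106C on the plus strand (chr12:47963346-47963595).
SERPINI1: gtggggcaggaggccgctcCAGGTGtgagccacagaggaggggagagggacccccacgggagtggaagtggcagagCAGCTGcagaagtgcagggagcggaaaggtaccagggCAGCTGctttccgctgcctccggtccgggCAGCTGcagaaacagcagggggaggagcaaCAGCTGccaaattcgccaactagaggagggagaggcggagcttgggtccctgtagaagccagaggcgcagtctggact
RAB3D: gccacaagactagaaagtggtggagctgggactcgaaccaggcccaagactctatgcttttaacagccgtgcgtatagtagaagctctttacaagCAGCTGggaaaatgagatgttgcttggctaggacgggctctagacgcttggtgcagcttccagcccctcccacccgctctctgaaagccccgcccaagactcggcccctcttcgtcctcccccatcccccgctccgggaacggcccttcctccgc
AKAP19: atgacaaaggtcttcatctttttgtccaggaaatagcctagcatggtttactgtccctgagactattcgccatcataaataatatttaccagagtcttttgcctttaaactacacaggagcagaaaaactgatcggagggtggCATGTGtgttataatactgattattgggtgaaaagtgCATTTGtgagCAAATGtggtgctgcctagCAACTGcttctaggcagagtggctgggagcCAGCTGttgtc
TIFA: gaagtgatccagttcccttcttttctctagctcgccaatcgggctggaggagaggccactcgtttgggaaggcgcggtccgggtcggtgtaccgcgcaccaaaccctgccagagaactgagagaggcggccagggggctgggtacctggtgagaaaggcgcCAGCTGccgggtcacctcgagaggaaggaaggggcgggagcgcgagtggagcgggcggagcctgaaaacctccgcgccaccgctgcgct
TMEM106C: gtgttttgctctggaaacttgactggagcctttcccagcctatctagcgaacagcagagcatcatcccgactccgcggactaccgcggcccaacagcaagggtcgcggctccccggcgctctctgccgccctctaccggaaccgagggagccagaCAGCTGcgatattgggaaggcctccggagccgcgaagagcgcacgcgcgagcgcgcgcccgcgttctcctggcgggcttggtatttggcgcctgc
SERPINI1 holds CAGCTG 4 times, beginning 174, 137, 108 and 78 bases before the start, and CAGGTG at 231. RAB3D holds 1, at 155, TIFA 1, at 89, and TMEM106C 1, at 95. AKAP19 holds CAGCTG at 11 and 4 other forms of CANNTG between 41 and 107 bases before the start. A match describes letters in the window and is not a measured binding site.

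Genes of lysosomes and of receptor turnover were also among the calls. ACP2, a lysosomal acid phosphatase, went in AGS from 869 to 1557 and in HGC-27 from 522 to 1185 (log2 change 1.01, SE 0.08, n = 2 lines, limma adjusted p = 0.00264). CTSC, cathepsin C, a lysosomal protease that activates other serine proteases, rose by all 3 of its tested probe sets. The probe set with the largest change went in AGS from 304 to 615 and in HGC-27 from 670 to 1123 (0.88, SE 0.08, adjusted p = 0.00563), and the other 2 changed by 0.64 and 0.55. In AGS 1 of these, at 1557 with MIST1, stayed below the parental 1703. ARRDC3, an arrestin-domain adaptor that sends surface receptors to degradation, went in AGS from 103 to 243 and in HGC-27 from 308 to 575 (1.07, SE 0.10, adjusted p = 0.00653). For ACP2 both MIST1 values exceeded all 4 arrays without MIST1. For ARRDC3 and the CTSC probe set with the largest change, the AGS MIST1 value lay below the HGC-27 control. These rose within each line while the groups overlapped across lines. On the other 2 CTSC probe sets the AGS MIST1 values, 1557 and 3307, lay above the HGC-27 controls, 1411 and 2669.

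In the endoplasmic reticulum and its sugar supply, CCPG1 had the largest change. Its product is the receptor that delivers pieces of the endoplasmic reticulum to autophagosomes, and it went in AGS from 286 to 471 and in HGC-27 from 143 to 316 (0.93, SE 0.11, n = 2 lines, limma adjusted p = 0.0148). This probe set is marked _x_at, a mark for possible cross-hybridization. A pair of _x_at probe sets that name both CCPG1 and the read-through gene DNAAF4-CCPG1, and so were not tested, read 1.83-fold and 2.17-fold, and 1.72-fold and 2.43-fold, in AGS and HGC-27. UAP1, the enzyme that makes UDP-N-acetylglucosamine, went in AGS from 1092 to 1750 and in HGC-27 from 1248 to 2291 (0.78, SE 0.06, adjusted p = 0.0025). TMED3, a cargo adaptor of vesicles between the endoplasmic reticulum and the Golgi, went from 1342 to 1789 and from 1372 to 1765 (0.39, adjusted p = 0.0284). UGT8, which makes galactosylceramide, went from 445 to 679 and from 244 to 421 (0.70, adjusted p = 0.0148).

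MPC1, a subunit of the carrier that brings pyruvate into mitochondria, had among the smallest errors of all calls. It went in AGS from 1877 to 2942 and in HGC-27 from 2178 to 3324 (log2 change 0.63, SE 0.04, n = 2 lines, limma adjusted p = 0.00206). Parental cells read 1489 and 1858, below both transfected arrays of their line.

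Among signalling genes, AKAP19, a small membrane anchor for protein kinase A, rose by both of its probe sets. The probe set with the larger change went in AGS from 22.3 to 49.4 and in HGC-27 from 89.9 to 250.2 (1.31, SE 0.16, n = 2 lines, limma adjusted p = 0.0159). The mean log2 value of its controls lay under the filter, so it was tested only through its MIST1 arrays and its call gives little support. The other probe set, with both controls above the filter level, went from 67.7 to 119 and from 169.5 to 470.2 (1.14, adjusted p = 0.0244). PDE7A, a phosphodiesterase that degrades cyclic AMP, was called by 1 probe set, which went in AGS from 33.5 to 75.3 and in HGC-27 from 35.7 to 85.7 (1.22, SE 0.17, adjusted p = 0.0347). Both control values lie below the median intensity of 51.08 that set the filter, so this probe set was tested only through its MIST1 arrays and the call gives little support. Parental cells read 90.6 and 115 on it, above both MIST1 values, and the other 3 tested probe sets of PDE7A changed by 0.09, 0.03 and -0.25. The call thus rests on a dim probe set, and the other 3 do not share it.

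TIFA, an adaptor that carries receptor signals to TRAF proteins and NF-kB, went in AGS from 417 to 889.5 and in HGC-27 from 561 to 1027 (0.98, SE 0.08, n = 2 lines, limma adjusted p = 0.0025). Its 2 other tested probe sets were higher in both lines as well, by 0.54 and 0.51, without a call. CASP4, an inflammatory caspase that senses bacterial lipopolysaccharide, went from 307 to 473 and from 115 to 189 (0.67, adjusted p = 0.0272). Parental levels of CASP4 were 406 (AGS), above the AGS control, and 74.4 (HGC-27), below the HGC-27 control. TRAF5, a signalling adaptor of tumour necrosis factor receptors, went from 237 to 339 and from 239 to 415 (0.65, adjusted p = 0.0367), with 353 in parental AGS cells.

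The other genes among the 20 with the largest changes have mixed roles. KIAA0513 went in AGS from 83.6 to 170 and in HGC-27 from 70.2 to 130 (0.95, SE 0.12, n = 2 lines, limma adjusted p = 0.0217), with 52.2 and 20.5 in parental cells. FIGN, the microtubule-severing ATPase fidgetin, was at least 1.5-fold higher in both lines by all 3 of its tested probe sets, of which 2 were called. The uncalled probe set, with controls of 66.87 (AGS) and 32.25 (HGC-27), passed the filter only through its MIST1 arrays and adds little. The called probe set with the larger change went in AGS from 105 to 187 and in HGC-27 from 58.3 to 107 (0.86, adjusted p = 0.0315). REC8, a cohesin subunit of meiosis, went in AGS from 1136 to 1811 and in HGC-27 from 29.5 to 48.4 (0.69, adjusted p = 0.0228), so the fold was alike at very different levels. MINDY1, a deubiquitinase, went from 164.5 to 254 and from 196 to 384 (0.80, adjusted p = 0.0249). CCDC112 went from 283 to 408 and from 206.5 to 386 (0.72, adjusted p = 0.0356). Its parental levels, 374 (AGS) and 326 (HGC-27), lay above the control of the same line and below the MIST1 array. LINC00623, a noncoding RNA read by an _x_at probe set, went from 752 to 1411 and from 1433 to 1976 (0.69, adjusted p = 0.0272).

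The remaining called genes, which lie outside the rule for naming and are given because they complete the list, changed by 0.30 to 0.62. They include further parts of the secretory pathway, DPM2, a subunit of dolichol phosphate mannose synthase, at 0.55 and SLC39A13, a zinc transporter, at 0.54. Mitochondrial genes were COQ8A, a kinase-like protein of coenzyme Q synthesis, at 0.59, the ribosomal protein gene MRPL22 at 0.54 and BCKDK, the kinase of the branched-chain ketoacid dehydrogenase, at 0.46. DEF6, a guanine nucleotide exchange factor, was at 0.62, FNDC3A at 0.61 by the larger of its 2 called probe sets, and NDRG1, a stress-responsive gene, at 0.60. TMT1B, a thiol methyltransferase, was at 0.53, SCD5, a fatty acid desaturase, at 0.49, ILK, a kinase of integrin adhesions, at 0.37, and TMEM106C at 0.36. HARS1, a histidyl-tRNA synthetase, stood at 0.34, and GGH, a lysosomal gamma-glutamyl hydrolase, and ARLN at 0.30 each.

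TNNC1, the troponin C of slow muscle, was the 1 gene called lower. It read 384 in the AGS control and 265 with MIST1, and 275.5 in the HGC-27 control and 180 with MIST1 (log2 change -0.58, SE 0.09, n = 2 lines, limma adjusted p = 0.045). Parental HGC-27 cells read 65.0, below both transfected arrays of that line. The call ended with a robust prior, when unfloored, with a median floor and with a filter of 2 arrays above the median (adjusted p = 0.0516). In that last case the 1 lower call was another gene, TMEM170A, at -1.45, so the lower side rests on a value close to the threshold.

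All 44 called rises were above the control in both lines, and the size of the change differed between lines. A change that differs widely between the lines gets a large SE in this fit. The shared sign of the calls therefore largely follows from how they were picked and is not a separate result. Of the 44 higher probe sets, 24 were at least 1.5-fold higher in both lines, 11 in 1 line and 9 in neither, and the change was larger in HGC-27 for 26 and in AGS for 18. The MIST1 value also exceeded the parental value of its line in both lines for 39 of the 44, by at least 1.5-fold for 20. The MIST1 arrays are shared by these comparisons, so this count is no separate evidence.

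By fold alone, 207 probe sets were at least 1.5-fold higher in AGS and 207 in HGC-27, and 39 of these, from 32 genes, were shared, which is 18.8% of either list and 0.165% of the probe sets tested. Lower by as much were 97 in AGS and 206 in HGC-27, and 1 was shared (0.00422%), which is 1.03% and 0.485% of the lists. That probe set belongs to the antisense RNA EMC3-AS1, which read 68.9 and 41.2 (AGS) and 142 and 78.8 (HGC-27) (limma adjusted p = 0.0913). At 2-fold 6 probe sets of 5 genes were shared upward and 0 downward, and at 1.3-fold 122 upward and 48 downward. Part of the 39 passed the filter only through their MIST1 arrays, so their place in the count gives little support. These were PDE7A, PRODHLP, LMCD1, SUSD2, ANKRD9, PADI2, the AKAP19 probe set with the larger change, and the uncalled probe sets of FIGN, DEF6 and KIAA0513. PDE7A and that AKAP19 probe set are also among the 6 shared at 2-fold. Of the AGS list, 65.7% were above 0 in HGC-27, and of the HGC-27 list 74.9% were above 0 in AGS.

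Over all 23674 probe sets the change had an SD of 0.19 in AGS and 0.21 in HGC-27, and medians of 0 and -0.04. The changes of the 2 lines, which share no array, correlated with Pearson r = 0.24 and Spearman rho = 0.24 across probe sets, which are not independent replicates, and 57.9% had the same sign. The agreement rose with brightness. In the dimmest of 4 equal bins of probe sets r was 0.12 and 49.8% had the same sign, or 54.2% without the 482 probe sets whose change was 0 in a line. In the brightest bin r was 0.43 and 63.1% had the same sign, with or without its 1 such probe set. The number called higher was 2, 12, 11 and 19 from the dimmest to the brightest bin, and the median SE fell from 0.15 to 0.06 over them. GGH and ARLN, called at a change of 0.30, read between 1959 and 3857 in the 4 arrays.

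Fold and call did not pick the same probe sets, since 15 of the 39 shared at 1.5-fold were not called, and 11 genes among them had no called probe set at all. LMCD1, a LIM-domain protein, went in AGS from 30.4 to 54.4 and in HGC-27 from 51.6 to 100 (0.90, limma adjusted p = 0.115). ERVK13-1 was at 0.86 (adjusted p = 0.0572), the pseudogene PRODHLP at 0.88 (adjusted p = 0.115) and ARHGEF37 at 0.74 (adjusted p = 0.115). NPY, which encodes the secreted peptide neuropeptide Y, went from 72.7 to 120 and from 69.9 to 111 (0.69, adjusted p = 0.11). SUSD2 went from 87.8 to 297 in AGS but from 6.05, under the floor of 17.7, to 28.8 in HGC-27 (1.23, adjusted p = 0.115), so its HGC-27 change is understated. Each of these 6 genes had an array below 100, in the brightness range where the median SE was 0.15. LMCD1, PRODHLP and SUSD2 were tested only through their MIST1 arrays, since the mean log2 value of their controls lay under the filter.

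AQP3, a glycerol and water channel of epithelia, lies outside the naming rule and was chosen after its values were seen, as the gene with the widest HGC-27 change among tested probe sets. Its 3 tested probe sets were 1.54-fold, 1.49-fold and 1.32-fold higher in AGS and 2.79-fold, 5.09-fold and 4.15-fold higher in HGC-27. On the brightest it read 3921 and 5161 (AGS) and 542 and 2248 (HGC-27). None was called (lowest limma adjusted p = 0.0549), and the 2 lines differed widely in the size of the change. SLC31A2, a copper transporter, went in AGS from 352 to 543 and in HGC-27 from 111 to 327 (1.09, SE 0.17, adjusted p = 0.0615).

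Probe sets of the same gene gave another reading of the same RNA. Over the 6228 genes with 2 or more tested probe sets, all had the sign of the brightest in 54.3%. Of the 38 called genes, 19 had another tested probe set, and in 16 of these (84.2%) every tested probe set moved the same way. Taken singly, 23 of the 26 other probe sets had the direction of the call (88.5%), 22 of them in both lines. Genes with 2 or more called probe sets were RAB3D, RAB26, AKAP19, CTSC, FIGN and FNDC3A. The 3 exceptions were PDE7A, with a probe set at -0.25, TMEM106C, with a probe set at -0.23, and SCD5, with a probe set at -0.09. The other 19 called genes, SERPINI1 and MPC1 among them, had a single tested probe set. Probe sets of 1 gene share the arrays and the RNA, so they check the probes and not the cultures. For the 6 genes with 2 or more called probe sets, the agreement follows in part from the calls themselves. The uncalled probe sets of FIGN, DEF6, KIAA0513 and CASP4 passed the filter only through their MIST1 arrays. The 54.3% takes the brightest probe set as reference and the 84.2% the called one with the largest change, so these shares are not alike in kind.

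**Figure D3:**
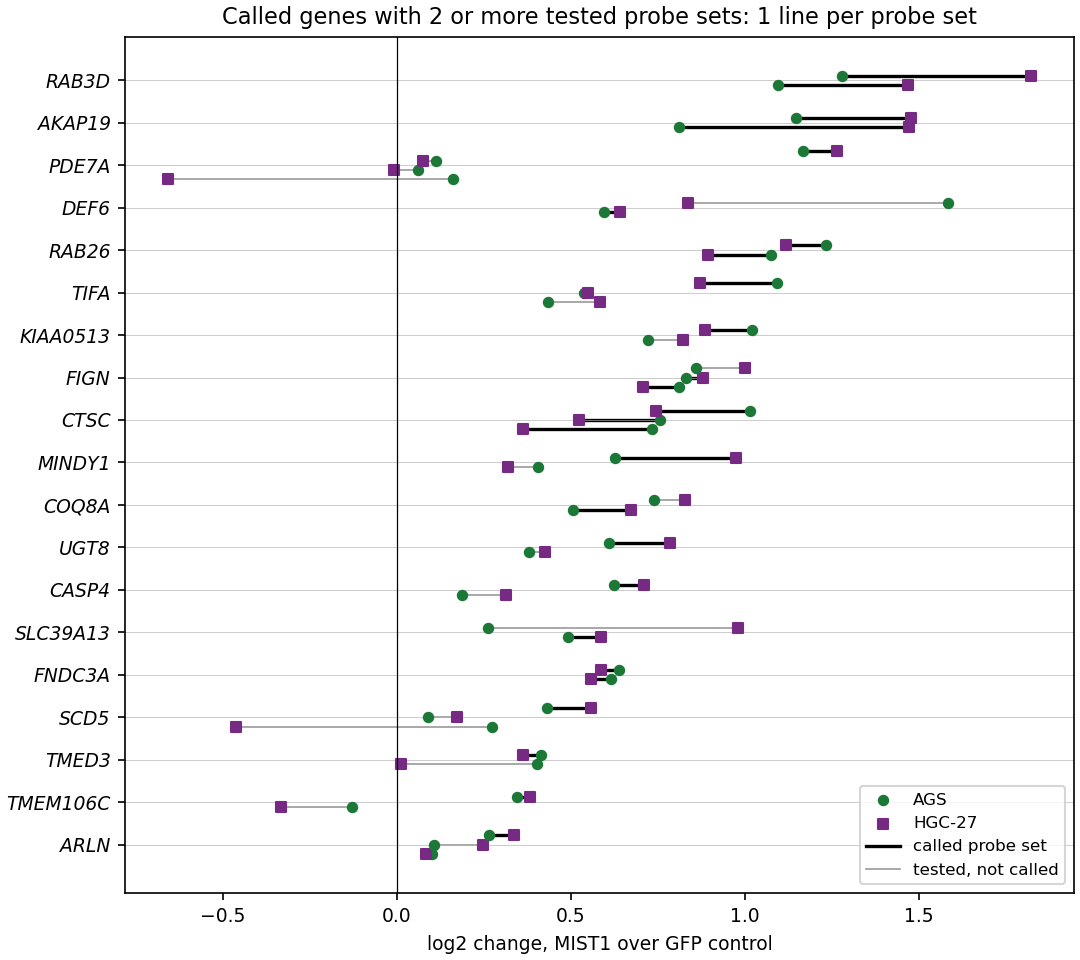
Log2 change of MIST1 over GFP control for every tested probe set of the 19 called genes that have 2 or more, genes on the vertical axis and 1 line per probe set; circles are AGS, squares HGC-27, and thick lines join the 2 values of a called probe set. All values of RAB3D, AKAP19, RAB26, FIGN, CTSC and FNDC3A lie above 0, and PDE7A, SCD5 and TMEM106C have a probe set with a mean below 0.

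Gene lists for the secretory programme and for other processes were described by their members, each gene by its brightest tested probe set. On that reading 37 of 12840 genes were called (0.288%), the median change was -0.02, and 24.9% of genes were higher and 33.4% lower in both lines. These shares are given as background, and no test of the lists was run. The lists were chosen with earlier results of these data known, so a called member in a list is not independent evidence. Of 9 tested MIST1-linked genes, RAB3D, RAB26 and SERPINI1 rose, 4 were higher in both lines and the median was 0.06. Members such as RAB3D and RAB26 may have been linked to MIST1 from these same samples, so the count is not independent evidence. Of 20 secretory Rab GTPases and effectors, RAB3D and RAB26 rose, 13 were higher in both lines and 3 lower, and the median was 0.10. RIMS2, a docking protein of secretory vesicles, was at 0.49 (limma adjusted p = 0.317). Of 18 SNARE proteins and fusion factors of exocytosis none was called, 5 were higher in both lines and 4 lower, and the median was 0.03.

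Of 22 listed products of zymogenic and exocrine cells, 15 had a probe set on the array that names the gene alone. Of these 15, only 5 were bright enough to test and none was called (median 0.08). SPINK1, a trypsin inhibitor of secretory granules, was at 0.50 (limma adjusted p = 0.28), and PGC, pepsinogen C, at 0.29 (adjusted p = 0.409). Of 22 chaperones and unfolded protein response genes none was called, with 4 higher and 10 lower in both lines, and the median of -0.03 turns to 0.01 when arrays are centred. The 19 ATF4 and amino acid stress genes had 0 calls and a median of 0.00, with ALDH18A1, a proline synthesis enzyme, at 0.43 (adjusted p = 0.0648). Of 9 receptors for autophagy of the endoplasmic reticulum CCPG1 rose and the median was 0.08. Of 25 genes of transport between the endoplasmic reticulum and the Golgi TMED3 rose (median 0.03), and of 11 Golgi structure genes none was called (median 0.04). Of 19 genes of hexosamine and N-glycan assembly UAP1 rose (median 0.05). Of its pathway partners NAGK, a kinase that salvages N-acetylglucosamine, was at 0.34 (adjusted p = 0.0905) and GNPNAT1, an acetyltransferase upstream of UAP1, at 0.29 (adjusted p = 0.145).

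ACP2 was the 1 called gene among 24 lysosomal enzymes and membrane proteins, of which 3 were higher and 11 lower in both lines (median -0.03). CTSC and GGH, lysosomal enzymes that rose, are not in that list. MPC1 was the 1 called among 14 genes of mitochondrial pyruvate entry (median 0.01), and the 30 mitochondrial ribosomal protein genes of the list had 0 calls and a median of -0.03, which turns to 0.01 when arrays are centred. MRPL22, which rose, is not in that list. ARRDC3 was the 1 called of 6 arrestin-domain genes, 5 of which were higher in both lines (median 0.10), with TXNIP, the thioredoxin-interacting protein, at 0.50 (limma adjusted p = 0.115). TIFA was the 1 called of 12 in the list of TIFA and NF-kB targets (median 0.05), and the target gene ICAM1 was at 0.16. Of 13 copper transport and metallothionein genes none was called, and the median of -0.01 turns to 0.03 when arrays are centred.

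No gene was called in the lists of other processes. The 25 mitotic genes had 16 higher and 4 lower in both lines and a median of 0.09, with AURKB, a mitotic kinase, at 0.20 (limma adjusted p = 0.169). The 21 DNA replication genes had a median of 0.04, the 14 p53 targets a median of -0.02 that turns to 0.01 under centring or quantile normalization, and the 14 genes of the BCL2 family a median of 0.05. BCL2 itself was at 0.74 (adjusted p = 0.306), 2.42-fold in AGS and 1.15-fold in HGC-27. Its controls read 26.25 (AGS) and 63.84 (HGC-27), with a mean log2 value under the filter. BCL2 was thus tested only through its MIST1 arrays, and its change gives little support. The 16 immediate early and heat shock genes had a median of 0.04, with EGR1 at 0.48 (adjusted p = 0.225). The 18 interferon response genes had 1 higher and 9 lower in both lines and a median of -0.08, with IFI44 at -0.50 (adjusted p = 0.291), and the 13 cholesterol synthesis genes 3 higher, 7 lower and a median of -0.09. Medians were 0.00 for 14 bHLH and ID factors, -0.06 for 18 epithelial and gastric genes, 0.03 for 12 mesenchymal genes and 0.06 for the 4 leukocyte and endothelial genes bright enough to test.

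**Figure D4:**
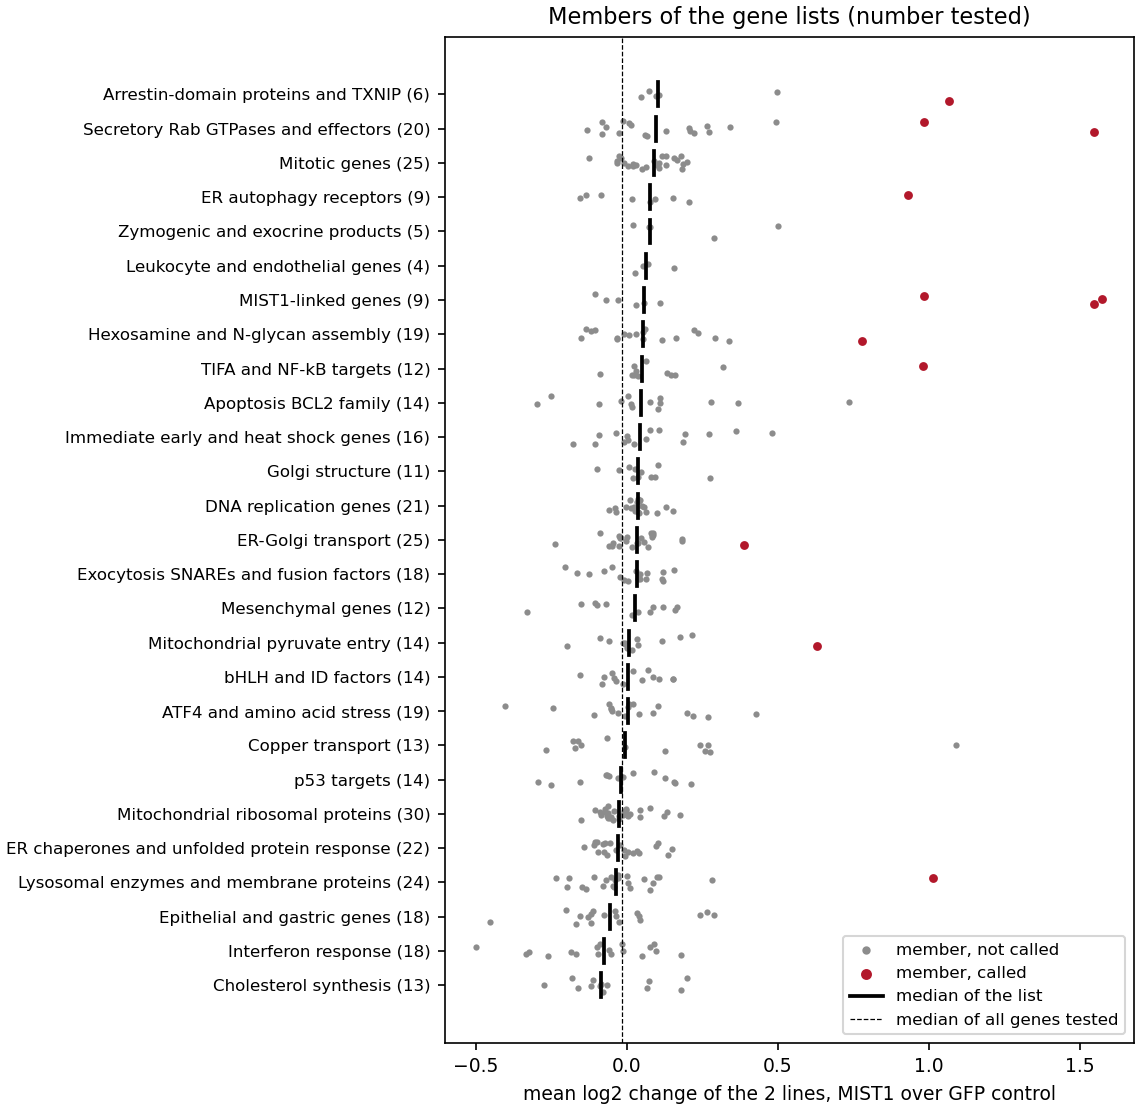
Mean log2 change of each tested gene in the 27 lists, 1 row per list with its number tested and 1 point per gene by its brightest probe set; red points are called, thick bars are list medians and the dashed line is the median of all genes tested. List medians lie between -0.09 and 0.10, while called members such as RAB3D and ACP2 stand far to the right of the other members of their lists.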

How the data were processed

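RNA from the 4 arrays was labelled and hybridized to 1-colour Affymetrix arrays from 5 µg of total RNA, per the labels' protocols. The authors deposited 1 intensity per probe set and array, read here as linear because values run from 0.48 to 19070.49. dChip is named in the series design text. The background correction and scaling of the deposited intensity are not given in the sources used here. Genes were named from the platform annotation, with 41043 symbols updated through the gene ID. Probe sets with several genes (1801) or none (11777) were left out of the tests.

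Values below the 25th percentile of the 4 arrays, 17.7, were raised to it before taking log2. Probe sets were tested where the mean log2 value over the 4 arrays exceeded that of the median, 51.08 (23674, or 57.6%), so 17423 were not tested. Values at the floor make a change look smaller than it is. The filter uses the mean of both groups, so a dim gene can pass through its higher group. The model was limma 3.58.1 in R 4.3.3 (lmFit, eBayes with a trend) with cell line as the block, two-sided, with Benjamini-Hochberg adjustment over all probe sets tested. The pairing comes from the labels, since both conditions share a cell line. The script was tested on simulated data. The number of arrays limits the precision.

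The members and the gene lists were chosen with earlier results of these data known. Genes named are BHLHA15 and the 3 markers, the 20 with the largest called rise and up to 8 with the largest called fall. Also named are up to 6 genes past 1.5-fold in both lines without a call and up to 6 past it in opposite ways, up to 3 members per list, and called genes whose probe sets disagree. Alternatives changed the floor, filter, scaling, prior, block, samples, probe set choice and fold limit.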

Additional observations from a re-analysis of the deposited data

Results flagged for a closer look

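Probe sets of 5 genes moved at least 1.5-fold in opposite ways in the 2 lines, each line being 1 pair of arrays, and the difference between the lines was not tested. MACROH2A2, a variant histone gene, read 41.9 in the AGS control and 144 with MIST1, but 100.3 and 53.4 in HGC-27, which puts the AGS log2 change 2.69 above that of HGC-27. TMEM204, on an _x_at probe set, was 1.90-fold in AGS and 0.441-fold in HGC-27, a log2 difference of 2.11, while its other tested probe set was 0.705-fold and 1.10-fold. The noncoding RNA LINC00342, also on an _x_at probe set, was 1.69-fold and 0.562-fold (difference 1.59), and 1.03-fold and 1.09-fold on its other tested probe set. ZNF33A, a zinc finger gene, was 1.56-fold and 0.528-fold (difference 1.56), against 1.19-fold and 0.844-fold, and 0.964-fold and 0.846-fold, on its other 2 tested probe sets. RAB3B, a vesicle GTPase related to RAB3D, was 1.50-fold and 0.665-fold on this probe set (difference 1.18). Its brighter probe set was 0.97-fold and 1.01-fold, and the remaining tested probe set was at the floor in AGS and 0.807-fold in HGC-27. MACROH2A2 had no other tested probe set. The lowest of the 4 values on these probe sets lay between 26.9 (RAB3B) and 67.7 (ZNF33A), in the dim range of the probe sets tested.

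Probe sets that entered no test also held changes of at least 1.5-fold in both lines. A probe set with no gene listed read 23.6 in the AGS control and 71.0 with MIST1 (3.01-fold), and 22.8 and 84.3 in HGC-27 (3.70-fold), while parental cells read 19.3 and 80.7. In all, 39 probe sets with no gene listed and 5 with several genes were at least 1.5-fold higher with MIST1 in both lines, against 19 and 2 lower by as much. Among the 17423 probe sets of single genes too dim to test, 82 were at least 1.5-fold higher in both lines and 45 lower.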

How the results depend on the processing

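The 22 called probe sets named from the largest changes kept their sign with a median floor, after quantile normalization, with centred arrays and with averaged probe sets. The alternatives to the fit, prior or filter leave the change itself as it is and do not bear on direction. The number of calls was not stable. Probe sets higher and lower with MIST1 (44 and 1 as reported) numbered 0 and 0 in the 6-array fit, without the replicate block, with no filter and with no variance trend, and at an unadjusted p under 0.05 these gave 268, 14, 2839 and 2236 probe sets in that order. They numbered 25 and 0 when unfloored, 14 and 0 with a median floor, 136 and 11 after quantile normalization and 453 and 74 with centred arrays, where every change shifts by 0.03. They numbered 39 and 0 with a robust prior, 56 and 2 with a filter at a mean of 2 times the median, 33 and 2 with averaged probe sets and 56 and 7 without _x_at and _s_at probe sets. A filter of 2 arrays above the median gave 46 and 1, with TMEM170A in place of TNNC1. Leaving out single arrays, in the 6-array fit, gave 3 (without the HGC-27 MIST1 array) to 49 (without the AGS parental array) higher and 0 to 3 lower. In HGC-27, dropping the parental array gave 42 higher and dropping the control gave 8, and in AGS dropping the MIST1 array gave 14 and dropping the control 4. Where an arm keeps 1 array, it is assumed to vary like the others.

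Probe sets at least 1.5-fold higher in both lines (39) became 121 with no filter, 25 with the stricter filter or 1 probe set per gene, 22 with averaged probe sets, 122 at 1.3-fold and 6 at 2-fold. The lower count (1) became 46 with no filter, 5 with a filter of 2 arrays above the median, 0 with the stricter filter, the floor at the median or a 2-fold limit, and 48 at 1.3-fold. Leaving out an array, an alternative chosen after seeing the data, leaves the other line alone, with 207 to 207 higher and 97 to 206 lower. The share with the same sign in both lines was 59.5% when unfloored, 48.5% with a median floor, 44.2% unfiltered, 56.7% with the 2-array filter and 60.6% with the stricter filter. With 1 probe set per gene, SCD5 is read at 0.49 and TMEM106C at 0.36, by their called probe sets, so their dimmer probe sets no longer give a negative value. Beyond such construction the cause of each shift was not tested.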

Other observations

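The genes at least 1.5-fold higher in both lines without a call hold 3 more, outside the naming rule and chosen after their values were seen. DISP2, related to the hedgehog-releasing protein Dispatched, read 121 in the AGS control and 183 with MIST1, and 111 and 317 in HGC-27, with 53.1 and 56.2 in parental cells (limma adjusted p = 0.0772). PADI2, an enzyme that turns arginine in proteins into citrulline, read 67.0 and 102 (AGS) and 24.4 and 69.8 (HGC-27) (adjusted p = 0.151), with 78.0 in parental HGC-27 cells. ANKRD9 read 68.4 and 104 in AGS, and 8.53, under the floor, and 55.0 in HGC-27 (adjusted p = 0.159). PADI2 and ANKRD9 were tested only through their MIST1 arrays, since the mean log2 value of their controls lay under the filter.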
